A study of Mus musculus with 12 samples.

Results

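Reads that carry a parental sequence difference were compared between genome 1 and genome 2 in undifferentiated mouse embryonic stem (ES) cells. Members are autosomal genes with at least 20 allele-resolved reads (genome 1 plus genome 2) in each of 6 day 0 libraries. Of 50957 autosomal genes in the allele-resolved table, 10123 passed and 40834 did not. The passing genes were 9230 protein-coding genes, 97 long intergenic RNA genes, 548 processed pseudogenes and smaller classes. The 6 libraries are female ES cells of a C57BL6/CAST hybrid, sampled at day 0 before LIF (leukaemia inhibitory factor, which keeps mouse ES cells undifferentiated) was withdrawn, 3 labelled Sirt7 knockout (KO) and 3 labelled wild type (WT). Another 6 libraries of the same design were taken at day 7 and are used here only to look at the same genes again. The protocol text has LIF present through day 0, while the treatment label reads LIF in 3 and None in 3 of the day 0 libraries, so that label was not used. Nothing in the labels says whether replicates came from separate cultures or clones, so spread between replicates may be technical. The column names do not say which strain is genome 1, and the names genome 1 and genome 2 are kept.

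In an F1 hybrid cell every autosomal gene has a copy from each strain, and reads that cover a strain-specific base show which copy was transcribed. Most genes use both copies about equally, cis-regulatory differences shift some genes towards one copy, and imprinted genes are transcribed from the copy of one parent only. Imprints are parental DNA methylation marks, maintained in the early embryo by KRAB zinc finger proteins such as ZFP57 with their cofactor TRIM28, and ES cells in culture are known to lose imprints or long tracts of heterozygosity.

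The allele-resolved share of gene reads was 29.7 to 31.2% per day 0 library, which left 6808833 to 11449705 reads on members. Total counts over all genes ran from 25587861 to 43984022. Sirt7 (chr11:120618372-120625240, GRCm38), a nuclear NAD-dependent deacylase and the gene named as deleted, was higher in the libraries labelled KO, with 19.7, 23.1 and 16.4 CPM (counts of the gene over all counts of the library, scaled to a common total), against 12.4, 7.75 and 9.98 CPM in the libraries labelled WT. These gene-level reads show no loss of Sirt7 RNA. The type of deletion is not given, so they cannot decide whether the gene product is lost. The groups are called the libraries labelled KO and WT throughout. The 29 listed ES cell (naive pluripotency) markers summed to 11551 to 12006 CPM in libraries labelled KO and 11451 to 11978 CPM in those labelled WT. Nanog was at 1005 ± 71.1 CPM in libraries labelled KO and 999 ± 31.7 CPM in those labelled WT (SD, n = 3 each). Single markers could differ, as Esrrb, at 228 ± 70.6 CPM in libraries labelled KO and 42.6 ± 9.29 CPM in those labelled WT, without overlap. Of 10 feeder fibroblast markers 4 stayed under 1 CPM in every library. Their summed level was 550 to 684 CPM in libraries labelled KO and 530 to 572 CPM in those labelled WT, carried by Fn1 and Vim, while Col3a1 and Dcn were at 0. Primitive endoderm markers summed to 13.1 to 19.04 CPM in libraries labelled KO and 14.3 to 16.6 CPM in those labelled WT, and trophoblast markers to 97.3 to 110 CPM in libraries labelled KO and 80.4 to 97.8 CPM in those labelled WT. The trophoblast sum was carried by Tfap2c, Krt8 and Krt18. Eomes was at 6.10 to 10.1 CPM, Cdx2 at no more than 0.23 CPM and Elf5 at 0. The part of such cells in the allelic values was not tested.

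Genome 1 supplied most of the reads. The genome 1 share (genome 1 reads as a percent of allele-resolved reads) of all member reads was 71.1, 70.8 and 71.2% in the libraries labelled KO and 70.9, 70.9 and 70.8% in the libraries labelled WT. The median gene stood at 88.4%. edgeR's quasi-likelihood test with a block per library called 8063 of 10123 members at an adjusted p of at most 0.05, which is 79.7% of those tested. Genome 1 was higher at 6068 of them (59.9% of members) and genome 2 at 1995 (19.7%). Because genes that lie together shared their balance, the rest of the description goes by position.

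**Figure D1:**
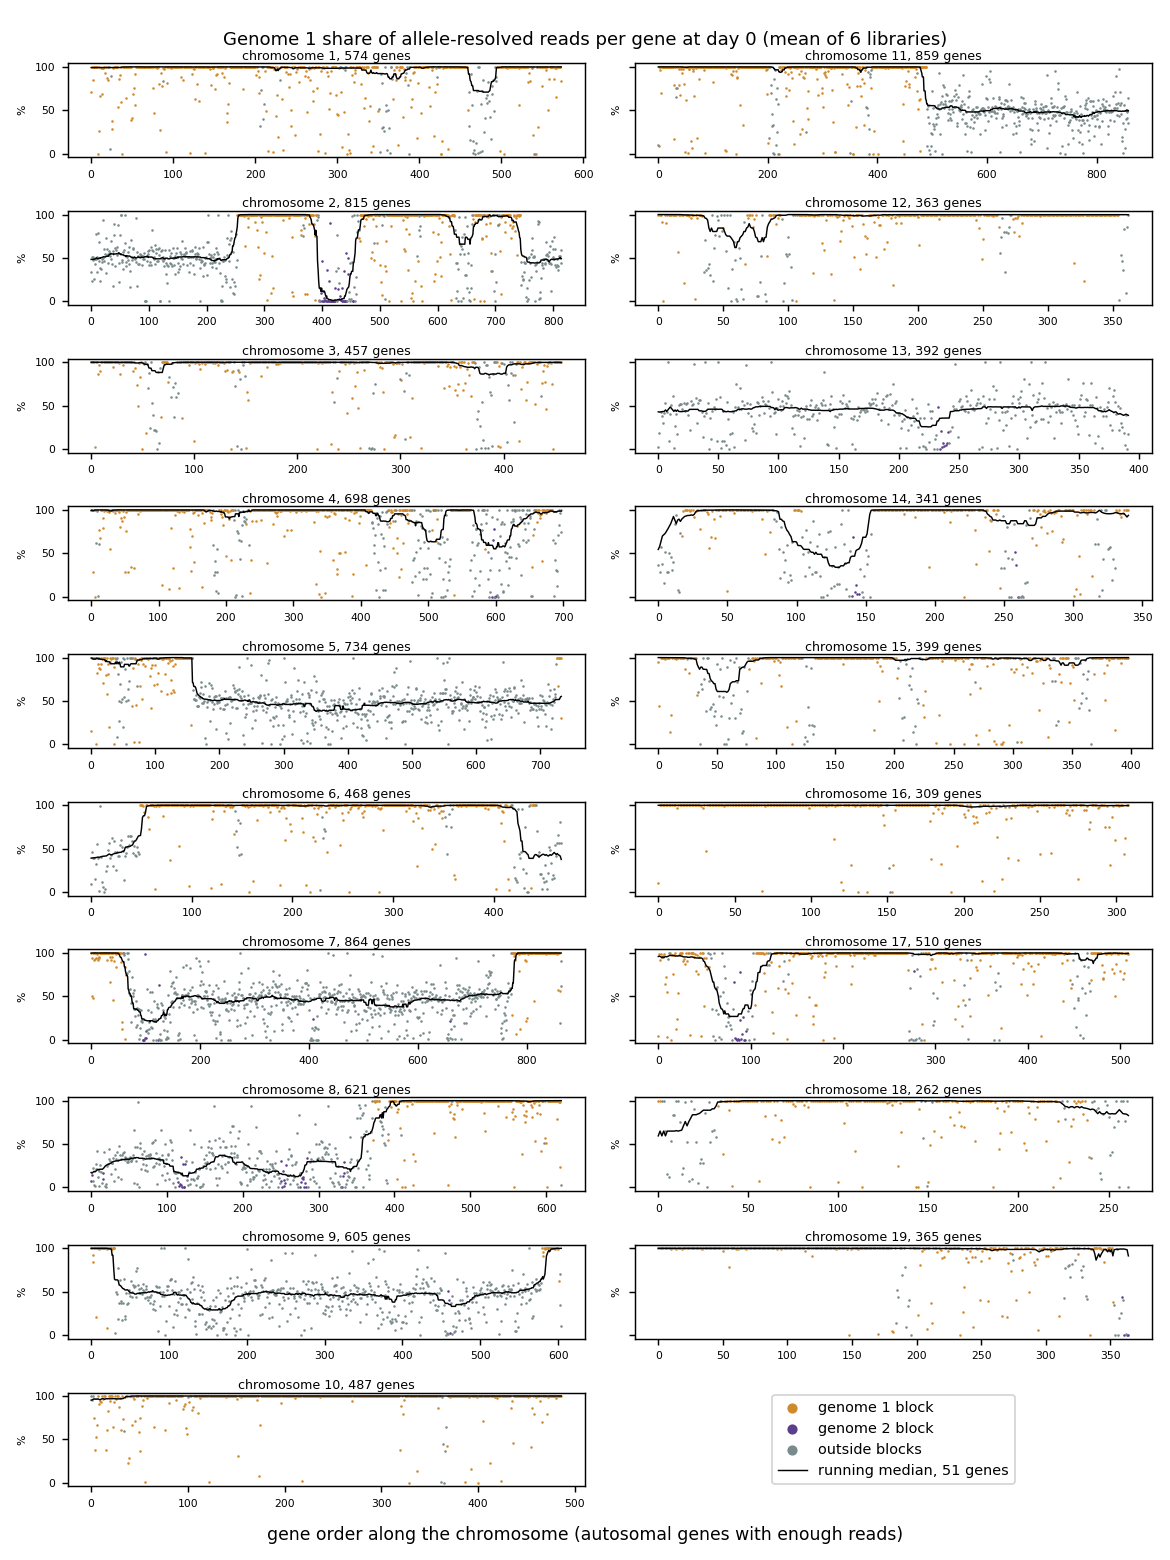
Mean genome 1 share (percent) of each of 10123 members at day 0, in gene order along each autosome, with colours for genome 1 blocks, genome 2 blocks and genes outside blocks, and a black running median over 51 genes. Chromosomes 10 and 16 stay near 100% along their length, while chromosome 13 and long parts of chromosomes 5, 7 and 9 stay near 50%.

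Over much of the autosomes reads came almost from genome 1 alone. A block was defined as consecutive members whose running median share over 11 members was at least 90% (genome 1) or at most 10% (genome 2). By this rule 140 genome 1 blocks held 5600 members (55.3%) over 1326 Mb, and 29 genome 2 blocks held 140 members (1.38%) over 9.02 Mb. The block share follows from the rule and is given without a test. In 3039 of the 5600 genes in genome 1 blocks no genome 2 read was counted in any of the 6 libraries. Blocks drawn from the libraries labelled KO alone and from those labelled WT alone put 9872 of 10123 members (97.5%) in the same state and none in opposite genomes. In each of the 39 blocks with at least 50 members the median share was 100% in every day 0 library, and its lowest value in any day 7 library, which the rule did not use, was 99.4%. Small blocks were less uniform. The running median reaches past a block's own members, and in 22 of 140 genome 1 blocks, with at most 4 members each, the members' own median was under 90%, in 6 of them under 50%. In 16 of 29 genome 2 blocks, with at most 5 members each, it was over 10%. Whether the cells' DNA carries the other genome in these blocks was not tested.

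Genome 1 blocks covered 97.7% of the members on chromosome 10, 98.7% on chromosome 16, 88.2% on chromosome 19 and 85.5% on chromosome 1. They covered none of the 392 members on chromosome 13 and 8.93% of those on chromosome 9. The block with most members lay at chr10:42761496-91181315 (48.4 Mb, 261 members), from Sec63, an endoplasmic reticulum translocation factor, to Tmpo, a nuclear lamina protein. Of its members 244 had a mean share of at least 95% and 3 of at most 5%. The next were 184 members at chr19:3454928-17401349 (Ppp6r3 to Rfk), 181 at chr4:99656299-128806045 (Foxd3 to Zfp362), 168 at chr4:10874498-63495991 (2610301B20Rik to Whrn), 167 at chr11:5098926-55118795 (Rhbdd3 to Atp5pb-ps) and 156 at chr16:31296192-98031801 (Apod to B230307C23Rik). 

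The largest run of genome 2 lay on chromosome 2. At chr2:118528757-119818104, from Bmf to Tyro3, 28 members had a median share of 0.29%. Bub1b, a spindle checkpoint kinase, and Nusap1, a spindle-associated protein, had no genome 1 read in any library, at means of 2123 and 2558 allele-resolved reads per library. Ino80, the ATPase of a chromatin remodelling complex, lies in the same block but was read mostly from the opposite genome, at 90.6 ± 0.86% (SD, n = 6). Knstrn, a kinetochore component, stood at 46.4 ± 12.1%. A second genome 2 block of 13 members followed at chr2:120316461-121140653 (Vps39 to Lcmt2), and 14 members at chr17:24718116-25015788 (Rps2 to Cramp1l) formed the only other one with more than 10.

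Inside genome 1 blocks, single genes departed from their neighbours. Of 5600 members 4385 (78.3%) had a mean share of at least 95%, 800 (14.3%) lay between 10 and 90%, and 180 (3.21%) at or under 10%. Of these 180 genes, 110 (61.1%) are annotated as pseudogenes, against 341 (6.09%) of all block members. Processed copies share sequence with their parent gene elsewhere, so the authors' read placement could split their reads, and values of such genes are uncertain. The 2 genes that departed most in the largest block were Gm5425 (0.24%) and Gm9118 (0.95%). In the other large blocks Gm6252 (0.70%), Ftl2-ps (0.89%), Ldha-ps2 (3.93%) and Gm5487 (0.86%) did so too. Ppia, which encodes cyclophilin A and has many processed copies, had 0.64 ± 0.48% genome 1 at a mean of 10778 reads, in a chromosome 11 block with a median of 100%. Prune2 (4.73 ± 5.39%) and Pcnp (14.6 ± 8.34%) were departures without a pseudogene symbol. The 66 protein-coding genes at or under 10% include Glo1, glyoxalase, at 0.16%.

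**Figure D2:**
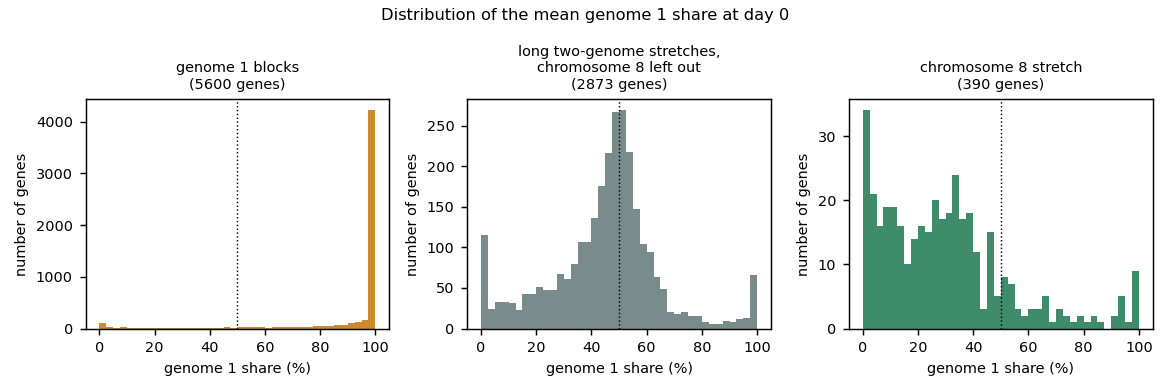
Number of genes by mean genome 1 share (percent, 2.5-point bins) for 5600 members of genome 1 blocks, 2873 members of long two-genome stretches other than chromosome 8, and 390 members of the chromosome 8 stretch. The first panel piles up at 100%, the second peaks at about 50% with small piles at both ends, and the third lies mostly below 50% with a median of 26.8%.

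Where both genomes were read, shares lay nearer to even. Outside blocks the pooled genome 1 share was 46.3, 46.7 and 46.8% in the libraries labelled KO and 46.4, 46.4 and 46.6% in those labelled WT. All 6 lay below 50%. Genes were placed outside blocks by these same shares, and the rule took out 5600 genes at the genome 1 end and 140 at the genome 2 end, so the distance from 50% is given without a test. Over all members with a mean share from 10 to 90% the pooled share was 47.81%. For the genes outside blocks the mean pooled share was 46.6 ± 0.26% in libraries labelled KO and 46.4 ± 0.10% in those labelled WT (SD, n = 3 each). That difference of 0.18 points was within the spread (exact permutation test, two-sided p = 0.4, smallest possible 0.1). Of the 4383 genes outside blocks 2549 (58.2%) were called, 999 with genome 1 higher and 1550 with genome 2 higher. Their median share was 47.3%, with an interquartile range of 31.4 to 58.1%. Centring on their median log2 ratio, −0.16, moved the calls over all members to 6298 for genome 1 and 1803 for genome 2.

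A set of 7 long two-genome stretches, each with at least 100 members in a row whose 51-member running median lay between 10 and 90%, was chosen after the values had been seen and held 3263 members. They lay at chr2:3284212-69586065, chr5:35697180-151651242, chr7:12768090-133123350, chr8:3122061-91199976, chr9:15493432-120132369, chr11:87077732-121673153 and chr13:3298887-120047013. Of these members 1590 (48.7%) had a mean share from 40 to 60%, 89 (2.73%) of at least 95% and 194 (5.95%) of at most 5%. edgeR called 478 of them with genome 1 higher and 1212 with genome 2 higher. At a log2 ratio of at least 1 in size the counts were 248 for genome 1 and 860 for genome 2. Pseudogenes made up 1.19% of genes from 40 to 60%, 36.0% of those at or over 95% and 23.2% of those at or under 5%.

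Among the 7 stretches, which were drawn without leaving out block members, chromosome 8 stood apart. Of the 140 members of genome 2 blocks 37 lie on chromosome 8, all inside its stretch. The median share of the chromosome 8 stretch was 25.9, 26.5 and 25.9% in the libraries labelled KO and 25.7, 25.9 and 27.2% in those labelled WT. Each of the other 6 stretches had medians from 43.9% (chromosome 13, a library labelled KO) to 50.4% (chromosome 2, a library labelled WT), with no overlap with chromosome 8 in any library. At day 7 the chromosome 8 medians were 26.9, 25 and 25.6% in libraries labelled KO and 26.7, 26.6 and 25.1% in those labelled WT. Of its 390 members 322 (82.6%) were called, 284 towards genome 2 and 38 towards genome 1, against 47.6% of the 2873 members of the other stretches. The difference was seen before it was computed, so it is described and not tested.

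Well-read genes of the chromosome 8 stretch had narrow errors. Eif4ebp1, a repressor of cap-dependent translation, had 31.8 ± 0.71% genome 1 at a mean of 31590 reads per library (SD, n = 6). Lamp1, a lysosomal membrane protein, had 33.3 ± 0.99%. Nacc1, a transcriptional regulator with a BTB domain, had 8.09 ± 0.56%, and Mcm5, a subunit of the replicative helicase, had 12.51 ± 2.16%. Some genes leaned the other way, among them Calr, the chaperone calreticulin, at 79.6 ± 6.33% and Asna1, a tail-anchored protein targeting factor, at 95.1 ± 1.37%.

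**Figure D3:**
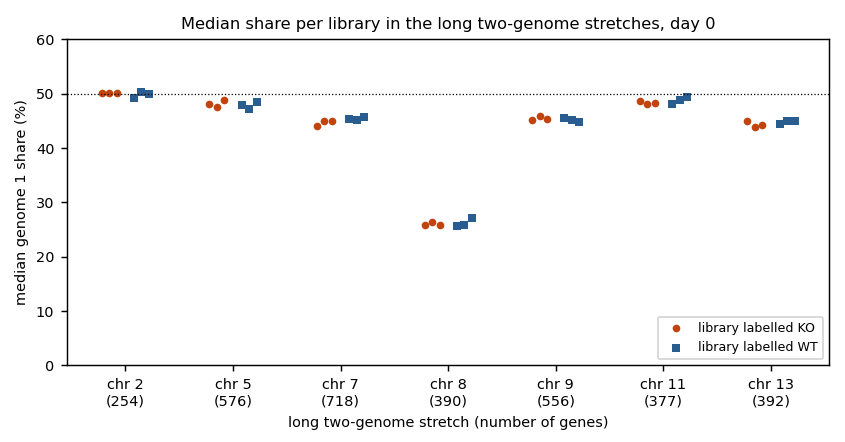
Median genome 1 share (percent) over the genes of each long two-genome stretch at day 0, 1 point per library, circles for the 3 libraries labelled KO and squares for the 3 labelled WT, with a dotted line at 50%. Chromosome 8 sits between 25.7 and 27.2% while the other 6 stretches sit between 43.9 and 50.4%.

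Precision followed depth. Among genes of the stretches with shares from 10 to 90%, the median SD between the 6 libraries was 14.5 points at 20 to 50 reads per library, 10.4 points at 50 to 200, 5.74 points at 200 to 1000 and 2.71 points at 1000 or more. Binomial sampling alone would give medians of 7.72, 4.83, 2.46 and 1.13 points for those genes. The ratio of a gene's SD to its own binomial SD had a median over genes of 1.95 to 2.61 in these depth classes. Confidence intervals and limits for single values cover counting error only. Just above the read minimum, 443 genes whose lowest library had 20 to 24 reads had a median share of 88.4%. Just below it, 489 genes with 15 to 19 reads had a median of 94.7%.

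Outside blocks, the genes with the largest imbalance were read from one genome alone. Towards genome 1 these were Atox1, Atp5md, S100a11, Ndufc1, Sh3bgrl3, Fh1, Gnl1 and Rrp15, each with no genome 2 read. Of these 8 genes 7 lie within 3 members of a genome 1 block, at its edge, and Sh3bgrl3 lies 10 members away. Atox1, a copper chaperone, had 31600 genome 1 reads over the 6 libraries, which allows a genome 2 share of up to 0.0095% and makes genome 1 at least 10533-fold higher (3 counts over the 6 libraries as the floor). Towards genome 2 these were Strap, Dynlrb1, Isyna1, Bcat2, Fgf17, Iars2, Ngdn and B3gnt3, each with no genome 1 read. Strap, a component of the SMN complex, had 17460 genome 2 reads, so genome 2 was at least 5820-fold higher. Within the long stretches, where most neighbours showed both genomes, Bub3, a spindle checkpoint protein (chromosome 7), had 100% genome 1 in every library. Lncenc1, a noncoding RNA of ES cells (chromosome 13), had 99.8 ± 0.22%. Isyna1 and B3gnt3 on chromosome 8, Bcat2, the mitochondrial branched-chain aminotransferase (chromosome 7), and Mrps7, a mitochondrial ribosomal protein (chromosome 11), had 0% in every library.

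Imprinted genes were followed because their expected one-parent pattern differs from that of their neighbours. Of 75 listed genes 71 were in the table, and 36 had enough reads. The listed genes outside the members include Igf2, Nnat, Peg3, Grb10 and Cdkn1c, which had fewer than 20 reads in at least 1 library. Of the 36, edgeR called 25 with genome 1 higher and 5 with genome 2 higher, and 6 were not called, with a median share of 99.7% beside 88.4% over all members. The 83.3% called is near the 79.7% over all members. Both parental classes showed genome 1 inside genome 1 blocks. There, 13 of 14 maternally expressed genes and 7 of 10 paternally expressed genes had a share of at least 95%.

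Promoter windows that hold a ZFP57 motif are printed for 3 imprinted genes, chosen to show 1 read from genome 1 alone (Mest), 1 whose host gene showed both genomes (Mcts2) and 1 with both genomes itself (Snrpn). They are 300-base windows (250 bases before and 50 after an annotated start, 5′ to 3′ on the gene's strand, from RefSeq on GRCm38.p6). Capitals mark the motif TGCCGC or its reverse complement GCGGCA. These are Mest at chr6:30737800-30738099 (plus strand), Mcts2 at chr2:152686898-152687197 (plus strand) and Snrpn at chr7:60005150-60005449 (minus strand).
Mest: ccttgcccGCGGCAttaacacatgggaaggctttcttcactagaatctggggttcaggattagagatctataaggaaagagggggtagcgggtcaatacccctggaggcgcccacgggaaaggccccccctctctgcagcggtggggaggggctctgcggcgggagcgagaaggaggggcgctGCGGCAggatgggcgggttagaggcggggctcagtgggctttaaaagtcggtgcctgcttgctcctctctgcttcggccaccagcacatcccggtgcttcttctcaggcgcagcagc
Mcts2: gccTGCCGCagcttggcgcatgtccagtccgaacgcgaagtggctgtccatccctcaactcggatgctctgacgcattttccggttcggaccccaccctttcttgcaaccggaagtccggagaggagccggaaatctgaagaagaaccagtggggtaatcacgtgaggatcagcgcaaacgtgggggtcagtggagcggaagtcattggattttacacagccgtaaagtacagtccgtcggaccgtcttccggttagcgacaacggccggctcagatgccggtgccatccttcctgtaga
Snrpn: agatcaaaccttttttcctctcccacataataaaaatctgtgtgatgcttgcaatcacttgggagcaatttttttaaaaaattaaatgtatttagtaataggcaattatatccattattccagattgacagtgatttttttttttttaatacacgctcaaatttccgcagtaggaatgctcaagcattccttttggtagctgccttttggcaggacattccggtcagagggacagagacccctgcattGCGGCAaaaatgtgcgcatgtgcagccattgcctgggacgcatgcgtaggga
The motif was found in 3813 of 32851 promoter windows (11.6%). Of the 36 imprinted members 28 had at least 1 window, and 8 of these 28 held the motif in at least 1 of their windows, namely Casd1, Copg2, Mcts2, Meg3, Mest, Plagl1, Snrpn and Zdbf2. Counted by window, as the 11.6% is, 9 of their 44 windows held it. Some genes have several windows, so the count by gene does not compare with that percentage. A match is a run of letters and not a bound site, and no window of Gnas held one.

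Mest, a paternally expressed hydrolase gene whose window holds 2 motif copies, and its maternally expressed neighbour Copg2, a coatomer subunit, both had 100% genome 1 in every library. Transcripts of the pair can overlap and strand use in the counting is not stated, so their reads may not be told apart. At the Dlk1-Meg3 locus on chromosome 12, Dlk1, a paternally expressed Notch-family ligand, had 100% and the maternally expressed noncoding RNAs Meg3 and Rian had 99.9 ± 0.18% and 99.98 ± 0.047% (SD, n = 6). On distal chromosome 7 H19, a maternally expressed noncoding RNA, had 100%, while Kcnq1ot1, a paternally expressed antisense RNA, had 99.9 ± 0.10%. Igf2r, maternally expressed in most mouse tissues, and Slc38a4, a paternally expressed amino acid transporter, also had 100%. In these blocks genome 1 reads alone therefore gave no contrast between maternally and paternally expressed genes.

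Of the 24 imprinted genes in genome 1 blocks, 4 had a share under 95%. Usp29, a paternally expressed gene of the Peg3 region, had 89.8 ± 3.70%. H13, a signal peptide peptidase that is maternally expressed, had 72.8, 71.4 and 57.4% in the libraries labelled KO and 63.0, 67.2 and 77.0% in those labelled WT. The groups overlap. Mcts2, a retrogene inside an H13 intron that is paternally expressed, had 98.4, 100 and 99.3% in libraries labelled KO and 100% in each library labelled WT. The pair share a locus but not a balance, and reads of the nested gene may be counted for either. Zdbf2, a paternally expressed gene on chromosome 1, ranged from 59.6 to 87.1%. Plagl1, a paternally expressed zinc finger gene, had 99.3, 100 and 98.8% in libraries labelled KO and 99.3, 91.8 and 66.0% in those labelled WT. The low value rested on 35 genome 1 and 18 genome 2 reads (95% Wilson interval 52.6 to 77.3%).

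Where both genomes were read, most imprinted genes were not read from one genome. Gnas, which encodes the stimulatory G protein subunit and is read from overlapping maternal, paternal and biallelic transcripts, was the exception. Its genome 1 share was 0.24, 0 and 0.87% in libraries labelled KO and 0.15, 0 and 0% in those labelled WT, at 923 reads per library (log2 ratio −8.97 ± 0.70 SE, adjusted p = 2.6e-05). All 6 libraries were low, and at day 7 the share was 0.11 to 0.88%. The gene-level count cannot divide its transcripts.

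At the Peg10 locus on proximal chromosome 6, Peg10, a retrotransposon-derived placental gene that is paternally expressed, had 29.1, 29.3 and 31.1% in libraries labelled KO and 34.2, 43.0 and 26.1% in those labelled WT (log2 ratio −1.09 ± 0.16 SE, adjusted p = 0.00076). Sgce, the adjacent paternally expressed sarcoglycan gene, had 28.4, 25.8 and 15.9% in libraries labelled KO and 13.3, 0 and 8.45% in those labelled WT. The groups do not overlap, but the KO minus WT term was not called and its lowest library has 60 reads. Casd1 (39.3 ± 9.80%) and Ppp1r9a (55.6 ± 9.20%), annotated as maternally expressed in some tissues, were not called, though with TMM scaling Casd1 was (log2 ratio −0.72, edgeR adjusted p = 0.043).

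On chromosome 7 the Snrpn and Ndn region, the mouse counterpart of the human Prader-Willi region, lies in a two-genome stretch. Snrpn, a splicing protein gene, had 26.8, 48.0 and 53.8% in libraries labelled KO and 51.8, 28.7 and 55.3% in those labelled WT. Libraries of both labels were high and low, with a mean of 44.1 ± 12.9% (adjusted p = 0.28), and in the lowest library 310 genome 1 and 847 genome 2 reads gave a Wilson interval of 24.3 to 29.4%. The counting error is therefore smaller than the difference between libraries. Ndn, a MAGE family gene, had 51.8 ± 11.5%, Peg12 43.7 ± 7.46% and Ube3a, a ubiquitin ligase, 50.5 ± 13.98%, and none was called. Further along, Inpp5f, a phosphoinositide phosphatase with a paternal transcript, had 7.53, 54.2 and 16.9% in libraries labelled KO and 14.1, 20.2 and 19.4% in those labelled WT (adjusted p = 0.0055). Sfmbt2, a paternally expressed Polycomb-group gene on chromosome 2, had 32.4 ± 10.1%, and the adjusted p was 0.0080. The Inpp5f call was lost with the libraries labelled KO alone (edgeR, adjusted p = 0.14), and the Sfmbt2 call with those labelled WT alone (edgeR, adjusted p = 0.13). Impact, paternally expressed, on chromosome 18, had 85.4 ± 3.66%, with genome 1 higher in 6 of 6 libraries.

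**Figure D4:**
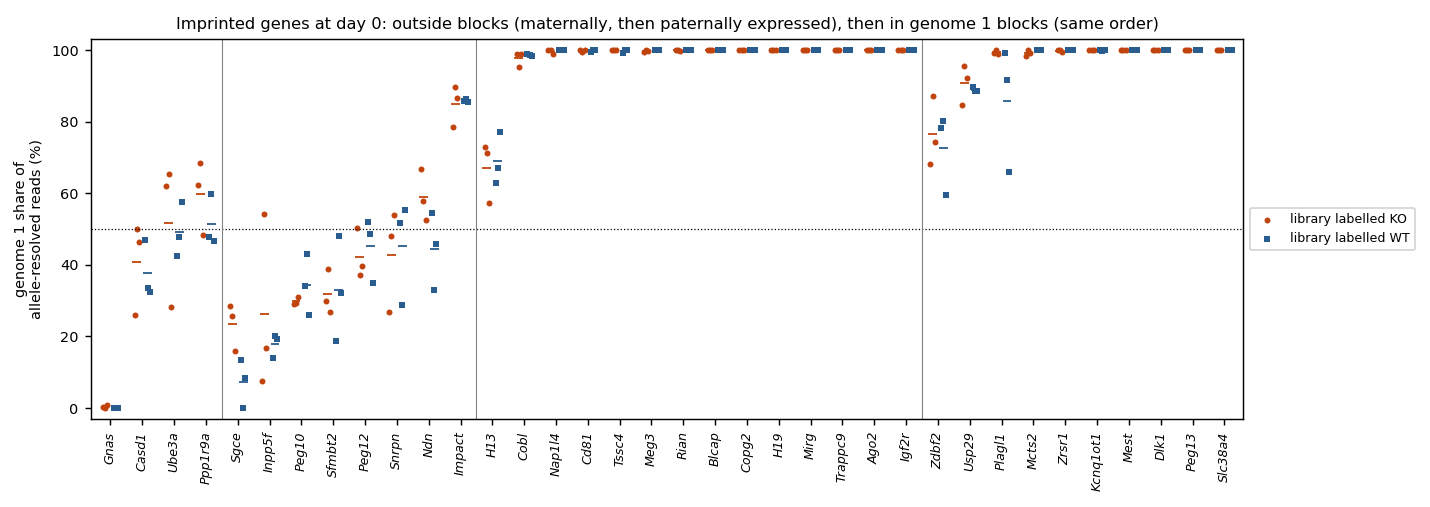
Genome 1 share (percent) of 36 imprinted genes in each day 0 library, circles for libraries labelled KO and squares for those labelled WT, short bars for group means and a dotted line at 50%. Vertical lines divide maternally and paternally expressed genes outside blocks (left) from those in genome 1 blocks (right), where most sit at 100%.

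The naive pluripotency genes, which encode the transcription factors and cofactors that hold ES cells undifferentiated, ranged from genome 2 alone to genome 1 alone. Of 29 listed genes 28 are autosomal and all 28 had enough reads. edgeR called 18 with genome 1 higher and 8 with genome 2 higher, and 2 were not called. In all 92.9% were called, against 79.7% over all members. Towards genome 1 the share was 64.3% against 59.9%, and towards genome 2 28.6% against 19.7%. Of the 28 genes 17 lie in genome 1 blocks, where 78.3% of all members had a mean share of at least 95%. The position of these genes and a trait of the list are therefore not told apart. Genome 1 alone or nearly so was read for the core factors Pou5f1 (99.5 ± 0.78%, SD, n = 6), Sox2 (99.8 ± 0.19%) and Nanog (99.8 ± 0.30%). The orphan nuclear receptor Esrrb (99.5 ± 0.77%), the demethylating enzyme Tet1 (100%) and the AKT coactivator Tcl1 (100%) did so as well. Klf2, a Kruppel-like factor on chromosome 8, was the opposite, with no genome 1 read among 17816 in the 6 libraries, so genome 2 was at least 5939-fold higher.

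Some of these genes kept both genomes inside a genome 1 block. Klf4, a Kruppel-like factor in the chromosome 4 block from 2610301B20Rik to Whrn, had 33.7, 28.1 and 29.1% in libraries labelled KO and 29.5, 27.7 and 28.8% in those labelled WT, at 8064 reads per library (log2 ratio −1.26 ± 0.084 SE, adjusted p = 1.2e-05). Tfcp2l1, a grainyhead-like factor, had 69.4 ± 1.39%, and Dppa4, a chromatin-associated factor on chromosome 16, had 80.6 ± 2.76%. Utf1, a chromatin factor near the distal end of chromosome 7, had 25.4 ± 6.52%. Fgf4, the growth factor ligand, had 56.0 ± 4.51% (log2 ratio 0.35 ± 0.12 SE, adjusted p = 0.026), a call that does not hold when any one of 5 libraries is left out. At these genes the spread between libraries is smaller than the distance from 100%.

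Outside genome 1 blocks, Sall4 (25.1 ± 2.52%) and Lin28a (33.3 ± 1.21%), a zinc finger factor and an RNA-binding protein, leaned to genome 2. Tbx3 (26.7 ± 6.11%), a T-box factor, and Zfp42 (24.5 ± 5.82%), which encodes the marker REX1, did too. Dppa5a, an RNA-binding protein of ES cells, was even, with 50.3, 48.5 and 51.9% in libraries labelled KO and 51.7, 48.8 and 50.1% in those labelled WT at 12923 reads per library (log2 ratio 0.01 ± 0.068 SE, adjusted p = 0.88). After centring its log2 ratio was 0.17 and it was called (adjusted p = 0.048). Stat3, the effector of LIF signalling, had 54.2 ± 6.56% and was not called.

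**Figure D5:**
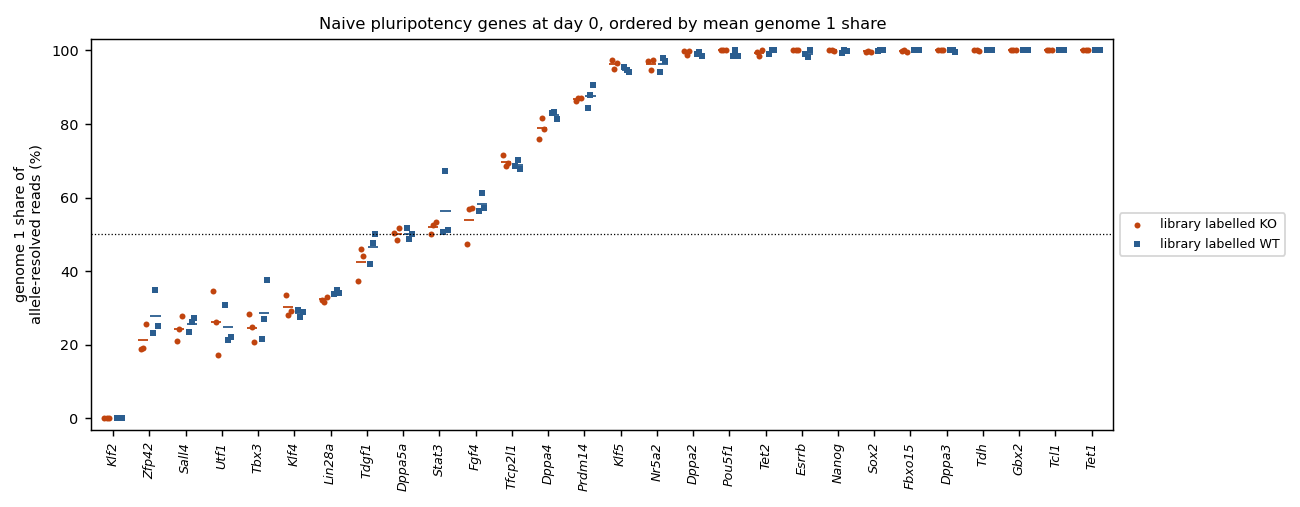
Genome 1 share (percent) of 28 naive pluripotency genes in each day 0 library, ordered by mean share, circles for libraries labelled KO and squares for those labelled WT, short bars for group means and a dotted line at 50%. The genes run from Klf2 at 0% to Tet1 at 100%, and the groups lie close together at most genes.

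Sirt7 lies in the chromosome 11 stretch. Its genome 1 share was 42.0, 29.4 and 29.7% in libraries labelled KO and 32.0, 43.9 and 48.0% in those labelled WT, with overlap between the groups (log2 ratio −0.75 ± 0.21 SE, adjusted p = 0.011). The KO minus WT difference of the log2 ratio was −0.49 and was not called (adjusted p = 1). With only the 3 libraries labelled WT the log2 ratio was −0.51 and the call was lost (adjusted p = 0.18). Of 5 sirtuins with enough reads, 2 were called with genome 1 higher and 3 with genome 2 higher. Sirt5, a mitochondrial deacylase on chromosome 13, had 17.04 ± 5.55%, and Sirt2, a cytosolic deacetylase on chromosome 7, had 21.5 ± 9.61% (SD, n = 6).

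Call shares of the other lists are read against those over all members, 79.7% called, 59.9% towards genome 1 and 19.7% towards genome 2. Of 70 cytosolic ribosomal protein genes 37 were called towards genome 1, 19 towards genome 2 and 14 were not called, with a median of 66.0%. The 80% called is close to the share over all members. The 31 in the long stretches had a median of 45.6%, beside 46.2% for all members there. Rplp1 (0.12 ± 0.061%, chromosome 9) and Rps13 (1.63 ± 0.35%, chromosome 7) were read almost from genome 2 alone. Ribosomal protein genes have many processed copies, so these shares are uncertain. Of 25 autosomal genes with a role in X inactivation 17 were called towards genome 1, 3 towards genome 2 and 5 were not called, again 80% called. Mettl3, the RNA adenosine methyltransferase, had 14.9 ± 2.23%. Hnrnpk, an RNA-binding protein that recruits Polycomb to Xist, had 40.7, 6.88 and 5.02% in libraries labelled KO and 26.3, 48.1 and 44.5% in those labelled WT, and was not called by edgeR (adjusted p = 0.061). It was called without WT replicate 2 (edgeR, adjusted p = 0.049) and by DESeq2 (adjusted p = 0.0078). Trim28, the cofactor of KRAB zinc finger proteins, had 99.7 ± 0.10% at 67099 reads per library, near the proximal end of the chromosome 7 stretch. Of 6 KRAB zinc finger and cofactor genes of imprint control 3 were called towards genome 1 and 3 were not called.

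Smaller lists held 8 MHC and antigen presentation genes, all called towards genome 1, among them B2m, the MHC class I light chain, at 100%. Of these 8, 6 lie in genome 1 blocks, where 5062 of 5600 members were called that way. Of 13 formative and primed state genes 10 were called towards genome 1 and 3 were not called, so 76.9% were called, and 8 lie in genome 1 blocks. Otx2, a homeobox factor of the primed state, had 2.31, 36.5 and 40.3% in libraries labelled KO and 1.42, 46.5 and 41.5% in those labelled WT. Replicate 1 of each label was near 0 and the others near 40%. edgeR did not call the gene (adjusted p = 0.12), and DESeq2 did (log2 ratio −1.83, adjusted p = 0.018). Of 13 glutathione S-transferase genes 9 were called towards genome 1, 3 towards genome 2 and 1 was not called, and 11 lie in genome 1 blocks. In all 92.3% of them were called, against 79.7% over all members. Towards genome 1 the share was 69.2% against 59.9%, and towards genome 2 23.1% against 19.7%. Gsta4, on chromosome 9, had 46.6 ± 1.27% at 13082 reads (log2 ratio −0.20 ± 0.066 SE, adjusted p = 0.027). After centring, its log2 ratio was −0.04 and the call was lost (adjusted p = 0.63). Of 4 feeder fibroblast markers 3 were called towards genome 1 and 1 towards genome 2. Thy1, a surface glycoprotein, had 24.3 ± 2.85% and Vim, vimentin, 69.4 ± 2.15%. Both primitive endoderm markers with enough reads were called towards genome 1, and of 4 trophoblast markers 2 were called towards genome 1 and 2 were not called.

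Few differences in allelic balance were called between the libraries labelled KO and WT. The median difference of mean share, KO minus WT, was 0 points over all members, with an interquartile range of −3.27 to 3.32 points outside blocks. Of all members, 199 differed by more than 20 points, 109 of them with at least 100 reads. With 3 libraries against 3, few calls do not show that the balance was equal. edgeR called 1 of 10123 members for the KO minus WT difference of the log2 ratio, which is 0.00988% of those tested. Before adjustment 185 members lay at an edgeR p-value below 0.05, and DESeq2 with adjustment found 7. The gene called was Npm1, nucleophosmin, a nucleolar chaperone in a chromosome 11 genome 1 block (chr11:33152287-33163206). Its genome 1 share was 99.8, 99.8 and 99.9% in libraries labelled KO and 97.6, 97.2 and 97.3% in those labelled WT (log2 difference 4.17, adjusted p = 0.0083). The groups do not overlap, and genome 2 reads numbered 47, 49 and 51 in libraries labelled KO and 635, 1219 and 823 in those labelled WT. At day 7 the groups overlapped, with 98.0, 98.3 and 99.9% in libraries labelled KO and 98.5, 98.8 and 99.8% in those labelled WT. Npm1 has processed copies, so its allele counts are uncertain, and the call was lost without KO replicate 1 (adjusted p = 0.088) or without WT replicate 1, 2 or 3 (0.11, 0.14 and 0.14). Groups that do not overlap occurred at 328 of 10123 members with KO higher and 291 with WT higher. Outside blocks these were 239 and 204 of 4383. A full separation of 3 libraries against 3 has an exact permutation p of 0.1, so these counts are not read as a genotype difference.

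Most genes at an extreme share at day 0 were also at that extreme at day 7. Of 10050 members with a share at day 7, 4787 were at or over 90% at both days and 603 at or under 10% at both. Only 2 passed from at least 90% at day 0 to at most 10% at day 7 and 1 the other way. The median change outside blocks was 0 points, with an interquartile range of −4.26 to 3.81 points. The pooled shares did shift, with 46.3 to 46.8% at day 0 and 45.4 to 45.7% at day 7 outside blocks, and 92.2 to 92.9% at day 0 and 93.8 to 94.0% at day 7 in genome 1 blocks. Single genes did move, as Zbtb45, a zinc finger gene beside Trim28, at 99.8 ± 0.074% at day 0 and 65.7 to 99.7% at day 7. Vim, at 66.6 to 71.8% at day 0, was at 47.5 to 53.1% at day 7. These day 7 values are given as a description and were not tested.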

How the data were processed

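RNA of 12 polyA-selected libraries (TRIzol extraction, NEBNext kits, per the labels' protocols) was measured, of which the 6 day 0 libraries enter the comparisons. The authors deposited expected counts (estimated counts per gene, here whole numbers and used as deposited) for all reads, and for reads given to genome 1, genome 2 or neither. Tool versions, per the submitters' processing notes, include HISAT2 2.1.0, StringTie 1.3.3, Trimmomatic 0.36, DESeq2 1.32.0, FastQC 0.11.3 and SAMtools 0.1.19, with the builds named mm10 and GRCm38. The sources used here do not give the allele-splitting step, strand use or annotation release. The 3 allele classes summed to 95.6% of the whole-table total.

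Gene IDs were matched to GENCODE vM21 for position (99.4% of 55487 IDs, 96.7% with the same symbol). Genome 1 and genome 2 counts entered edgeR 4.0.16 (R 4.3.3) as 2 columns per library with a library block, equal library sizes for both columns and no TMM scaling, since scaling would remove a shared imbalance. Adjusted p-values are Benjamini-Hochberg over all 10123 members. A second fit added allele by genotype. The scripts were tested on simulated data. Shares are means of library shares. Sensitivity settings were DESeq2 1.42.0, TMM, centring, read minimums of 1, 10 and 50, leaving out libraries, single genotypes and other block windows or thresholds. Named genes were Sirt7, all imprinted members, the 8 largest each way outside blocks with at least 100 reads, end and departing genes of the 6 largest blocks, and up to 4 per other list outside blocks. Further naive pluripotency genes, genes of the stretches and of the chromosome 2 block, the day 7 examples and Glo1 were added after their values were seen. Members and lists were chosen with earlier results of these data known.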

Additional observations from a re-analysis of the deposited data

Results flagged for a closer look

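In 10 of 79 values tested over the 6 day 0 libraries, 1 library stood apart from the other 5, where chance alone would mark about 1 in 20. The marked values were the genome 1 shares of Inpp5f (54.2%, KO replicate 2), Nap1l4 (98.9%, KO replicate 3), Plagl1 (66.0%, WT replicate 3), Cobl (95.2%, KO replicate 2), Impact (78.6%, KO replicate 1), Klf4 (33.7%, KO replicate 1), Fgf4 (47.5%, KO replicate 1), Stat3 (67.4%, WT replicate 2) and Gm11942 (23.3%, KO replicate 1). The tenth was the median share of the chromosome 2 stretch in WT replicate 1 (49.2%). KO replicate 1 is marked for 4 genes and KO replicate 2 for 2, and the part of the library in these values was not tested.

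The log2 ratio of Npm1 differed between libraries labelled KO and WT by 4.17 (edgeR interaction, adjusted p = 0.0083), the only such call among 10123 genes.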

How the results depend on the processing

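Of 146 named genes, 125 kept their direction and their side of the threshold under every alternative. The counts of genes called for genome 1 against genome 2, over all members, outside blocks and in the stretches, stayed within 1.5 times. Over all members they ran from 6614 (at least 50 reads, 8179 genes tested) to 10668 (at least 1 read, 13935 tested), and from 7861 to 7965 without 1 library. Centring moved the median log2 ratio of all genes by 0.16 and TMM by −0.08. The pooled share outside blocks was 46.47 to 46.57% without 1 library. Members in genome 1 blocks stayed within 1.5 times of 5600, while those in genome 2 blocks numbered 78 (window of 21), 255 (window of 5), 366 (thresholds 80 and 20%), 68 (95 and 5%) and 37 (window of 51, added after the values were seen) against 140.

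For the KO minus WT difference DESeq2 called 7 genes, and leaving out 1 library gave 0 to 2 (184 to 225 at an unadjusted p under 0.05). With a replicate block (allele by replicate) edgeR called 0, with 403 at an unadjusted p under 0.05. The correlations of deviations between same-numbered libraries were 0.04, −0.04 and −0.01. They use the ratio of the 2 genomes within a library, where an effect shared by both genomes cancels. Whether the replicate numbers pair the samples therefore cannot be decided from them.

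Genes near an even balance, none of them called in these settings, changed sign. With TMM the log2 ratio was −0.0437 for Ube3a, −0.0152 for Tfap2c and −0.0645 for Dppa5a. With the libraries labelled WT alone it was −0.0477 for Ube3a, −0.33 for Ndn, −0.0303 for Sox4 and 0.0506 for Zfp568. Without 1 library it ran from −0.15 to 0.29 for Ube3a, −0.0786 to 0.33 for Ndn, −0.00463 to 0.33 for Sox4, −0.00384 to 0.13 for Tfap2c and −0.00672 to 0.0324 for Dppa5a. The cause was not tested. In some settings 6 named genes that were not called became called (2610301B20Rik, Casd1, Dppa5a, Hnrnpk, Otx2 and Zfp932). Leaving out single libraries ended the calls of Spen, Gsto1, Gsta4, Col1a1, Fgf4 and Tdgf1. The call of Inpp5f was lost with the libraries labelled KO alone, and those of Plagl1, Sfmbt2 and Sirt7 with the libraries labelled WT alone. Few allele-resolved reads, unstated strand use and read splitting, and processed copies limit single shares.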

Other observations

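On the X chromosome 357 genes passed the same read minimum. Their median share per day 0 library ran from 46.7 to 48.0%. Pooled over all X-linked genes, without the read minimum, the genome 1 share at day 0 was 45.7, 46.0 and 46.1% in libraries labelled KO. It was 46.6, 45.8 and 46.5% in those labelled WT, and 9.95 to 11.03% over the 6 day 7 libraries. All mitochondrial genes pooled, of which 20 had enough reads, gave 99.97 to 99.99% genome 1 at day 0.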
